A study of Mus musculus with 18 samples.

Results

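Smooth muscle of the gut wall was followed through the 9 genes Acta2, Actg2, Myh11, Mylk, Cnn1, Tagln, Des, Lmod1 and Synpo2, which were chosen by symbol as the contractile genes of smooth muscle. All 9 were found among the 36757 genes of the count table, each once, and all 9 passed the filter on low counts in every comparison. Smooth muscle contracts when calcium activates myosin light chain kinase, which phosphorylates the regulatory light chain of smooth muscle myosin and lets the motor pull on filaments of smooth muscle actin. Calponin and transgelin bind these filaments, desmin ties the contractile apparatus into the cell's intermediate filaments, and leiomodin starts new actin filaments. In the colon the genes are read mainly in the outer muscle coat (the muscularis propria), the thin muscularis mucosae and the walls of vessels, and Acta2 is also the usual marker of myofibroblasts, the contractile fibroblasts of wounds and tumors.

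RNA was sequenced from colorectal tissue of C57BL/6 mice and from organoids, in 6 groups of 3 libraries. Mice that entered the models at 6 to 8 weeks of age were either RNF138 fl/fl, floxed controls that the sample labels call wild type, or RNF138-/-, and how the floxed allele was deleted is not given in the sources used here. Colitis mice drank 2% dextran sulfate sodium (DSS) for 7 days and then plain water for 14 days, a cycle that was repeated 2 times, and were killed 4 weeks after the last cycle. CAC (colitis-associated cancer) mice were first injected with the carcinogen azoxymethane (AOM) at 10 mg/kg and 4 days later began the same DSS cycle, also repeated 2 times, so that tissue of all 4 groups came from DSS-treated mice. Organoids were grown in matrigel from digested tumor-bearing fragments of the CAC model of both genotypes. How much of the wall was taken with each tissue sample, and whether libraries came from separate mice, is not given in the sources used here, so p-values measure the spread between these libraries. Total counts were between 11514716 and 24390082 per library. Levels are CPM, counts scaled to a common library total, with TMM factors over all 18 libraries, and 3 counts corresponded to between 0.121 and 0.284 CPM.

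Rnf138 itself was not called lower in the libraries labelled RNF138-/- in any model (edgeR log2 fold change -0.055 in colitis, adjusted p = 0.963, and -0.098 in organoids, adjusted p = 0.668). It had 15.6, 17.97 and 25.1 CPM in RNF138 fl/fl colitis and 19.4, 17.99 and 19.1 in colitis labelled RNF138-/-, 27.6, 27.3 and 21.5 in RNF138 fl/fl CAC and 39.7, 45.3 and 45.8 in CAC labelled RNF138-/-, and 37.7, 53.5 and 55.7 in RNF138 fl/fl organoids and 50.3, 47.8 and 42.8 in organoids labelled RNF138-/-. In CAC it was higher in the 3 libraries labelled RNF138-/- than in every RNF138 fl/fl library (log2 fold change 0.72, SE 0.14, edgeR adjusted p = 0.0426). A count over the whole gene does not show which exons its reads came from, so the genotypes below rest on the labels. Y-linked genes were read in all 12 tissue libraries and in the 3 organoid libraries labelled RNF138-/-, and had 0 counts in the 3 RNF138 fl/fl organoid libraries, so sex and genotype cannot be told apart in the organoids. Replicate 3 of RNF138 fl/fl CAC had the highest level of its group for 9 of the 9 genes, and in colitis labelled RNF138-/- replicate 1 was the highest and replicate 3 the lowest for 9 of 9.

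The 2 smooth muscle actins have related coding sequences, and are shown because counts of the 2 can be separated only where their sequences differ. Acta2 encodes the alpha actin that dominates vascular smooth muscle, and Actg2 the gamma actin of visceral muscle. Over 1128 coding bases aligned without gaps from the stop codon back, the GENCODE M21 transcripts differed at 183 bases (83.8% identity), and the longest identical stretch was 29 bases. No 50-base window of Actg2 occurred in a transcript of another gene, and 0.326% of the windows of Acta2 did. The last 90 coding bases before the stop codon are given 5′ to 3′ along the transcript, with the 16 bases at which they differ in capitals (mm10, chr19:34241670-34241759 and chr6:83512988-83513077, both on the minus strand and each within 1 exon).
Acta2: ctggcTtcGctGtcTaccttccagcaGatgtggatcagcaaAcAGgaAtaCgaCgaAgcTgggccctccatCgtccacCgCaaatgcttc
Actg2: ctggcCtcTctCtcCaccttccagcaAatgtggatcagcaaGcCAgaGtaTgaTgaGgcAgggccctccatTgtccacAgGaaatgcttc

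Genes of this program are known targets of serum response factor (SRF), a transcription factor that binds the CArG box (CC, then 6 bases that are each A or T, then GG) and is switched on in smooth muscle by its partner myocardin. The RefSeq promoter table (GRCm38.p6) holds 6 of the 9 genes, namely Acta2, Cnn1, Des, Lmod1, Mylk and Synpo2. The CArG box was searched in the 250 bases before each start, whose pattern reads the same on both strands. A strict CArG box was in 0 of the 6 promoters and in 1.47% of all 32851. Allowing 1 base in the core that is not A or T, it was in 1 of the 6 and in 8.59% of all promoters. That promoter is Acta2, shown because it holds 2 such boxes, which start 84 and 34 bases before the start site and stand in capitals in its nearest 150 bases (chr19:34255374-34255523, minus strand).
Acta2 promoter: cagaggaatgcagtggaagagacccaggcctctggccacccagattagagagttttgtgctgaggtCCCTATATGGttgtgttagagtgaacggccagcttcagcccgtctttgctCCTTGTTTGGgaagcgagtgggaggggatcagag

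In CAC, all 9 contractile genes were lower in the tissue labelled RNF138-/- than in RNF138 fl/fl tissue, by 8.82-fold (Mylk) to 93.3-fold (Des). Across all genes tested in this comparison, 4.83% were called lower (edgeR quasi-likelihood test, Benjamini-Hochberg adjusted p under 0.05 over 17752 genes and at least a 2-fold change). Adjusted p-values of the 9 were between 0.0193 and 0.0406. In colitis 0 of the 9 passed, where 0.0902% of 16623 genes passed in either direction, and log2 fold changes were between -0.26 (Tagln) and 0.66 (Mylk). With an unadjusted p under 0.05, 1 of the 9 was higher in colitis labelled RNF138-/- (Mylk), where 6.08% of all genes were, and DESeq2 called 0 as well. In the organoids the direction was the opposite of CAC, with 4 of 9 called higher in the libraries labelled RNF138-/- (Actg2, Myh11, Synpo2 and Mylk) against 7.94% of 15294 genes, and a positive log2 fold change for 9 of 9. Fewer muscle cells in a sample and less RNA of these genes per cell cannot be told apart in bulk tissue.

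These calls depended on single libraries, and each group held 3. In CAC, 0 of the 9 passed without replicate 1 labelled RNF138-/- (adjusted p 0.0893 to 0.117), 0 without replicate 2 (0.114 to 0.16), and 3 without replicate 3 (Cnn1, Des and Lmod1, 0.0468 to 0.104). Without RNF138 fl/fl replicate 2, 8 passed, all but Tagln. The 4 Y-linked genes were read in both groups, at summed levels of 188 to 229 CPM in RNF138 fl/fl CAC and 148 to 202 in CAC labelled RNF138-/-. With a covariate from these Y-linked genes 0 of 9 contractile genes passed (0.0754 to 0.146), while the log2 fold changes of the 9 were -7.83 (Des) to -3.16 (Mylk). Without replicate 1 labelled RNF138-/- these were -6.18 (Des) to -2.94 (Mylk). Under each of these settings 9 of 9 kept an unadjusted p under 0.05 and a lower level in the libraries labelled RNF138-/-. DESeq2, the replicate block, RLE or library-size scaling, no filter, a fit of all 18 libraries, and leaving out RNF138 fl/fl replicate 1 or 3 each gave 9 of 9. Leaving out RNF138 fl/fl replicate 3, the library with the most muscle signal, moved 7 of the 9 by more than 1.5-fold, for example Des to a log2 fold change of -5.63 and Mylk to -2.35. Leaving out replicate 3 labelled RNF138-/- moved Cnn1 to -6.998, Des to -7.80 and Actg2 to -5.88. In the organoids the count was 2 (Mylk and Synpo2) without RNF138 fl/fl replicate 2 or without any 1 of the libraries labelled RNF138-/-, 8 (all but Tagln) without RNF138 fl/fl replicate 1, where Myh11 was 2.999 and Actg2 2.75 on the log2 scale, and 7 without a filter. DESeq2 called 4, with Des in place of Myh11.

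**Figure D1:**
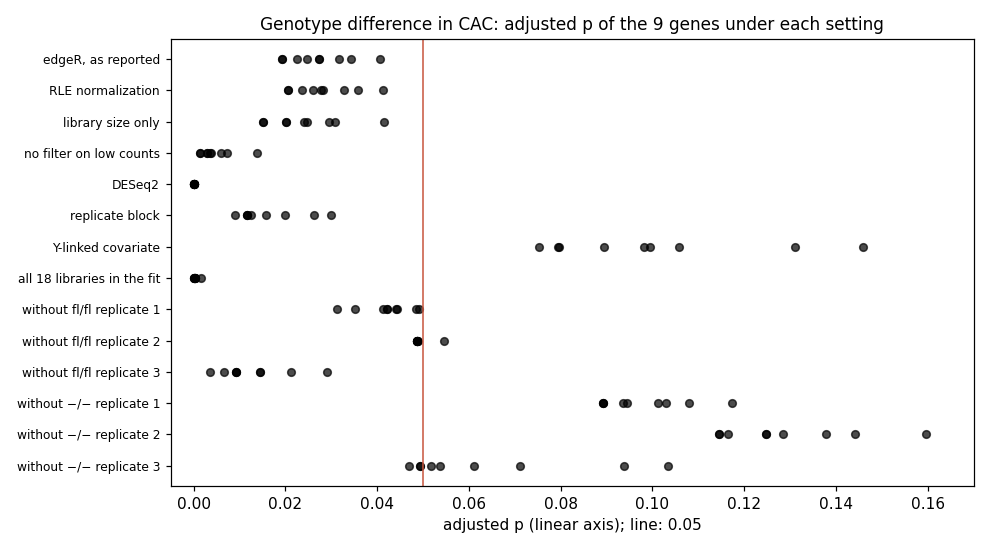
Adjusted p (linear axis) of the 9 genes for the genotype difference in CAC, 1 row per setting and 1 point per gene, with a line at 0.05. All points lie left of the line with the 6 libraries, except with the covariate from Y-linked genes, and all lie right of it without replicate 1 or replicate 2 labelled RNF138-/-.

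**Figure D2:**
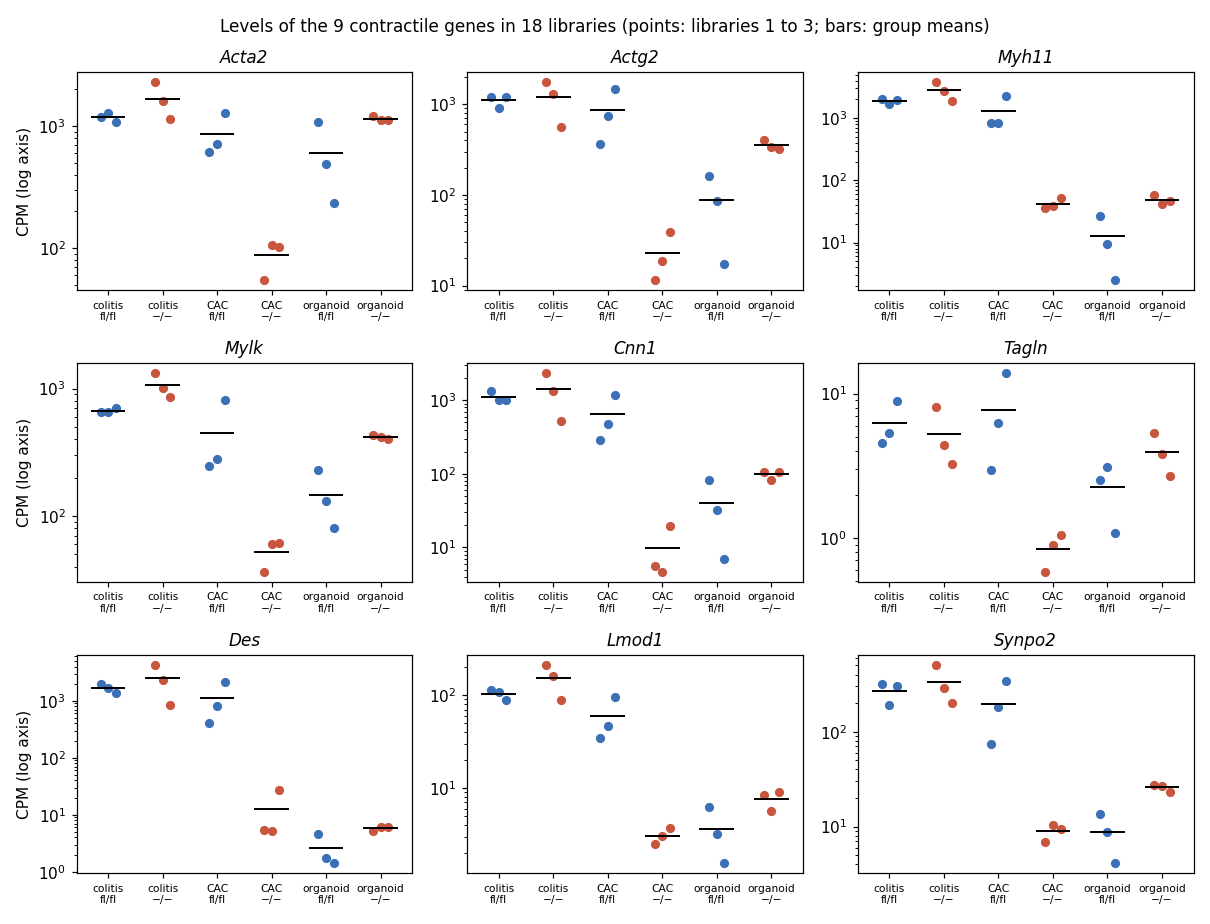
Levels of the 9 genes (CPM on log axes, 1 panel per gene) in the 6 groups, with 1 point per library and a bar at the group mean, blue for RNF138 fl/fl and red for libraries labelled RNF138-/-. The 3 CAC libraries labelled RNF138-/- sit below all 3 RNF138 fl/fl CAC libraries in each panel, and Acta2 stays between 236 and 1204 CPM in the organoids while Des does not pass 6.05.

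Acta2 (ENSMUSG00000035783, chr19:34241090-34255590, minus strand in mm10) encodes smooth muscle alpha actin, the thin filament on which the myosin motor pulls. In colitis it had 1186, 1282 and 1073 CPM in RNF138 fl/fl libraries and 2304, 1600.2 and 1138 in those labelled RNF138-/-, and the groups overlapped. CAC libraries held 610.2, 709 and 1282 CPM in RNF138 fl/fl tissue and 54.9, 105 and 103 in tissue labelled RNF138-/-. Every CAC library labelled RNF138-/- was below every RNF138 fl/fl one, with means of 867 ± 363 and 87.6 ± 28.4 (SD, n = 3), a 10.3-fold difference (log2 fold change -3.37, SE 0.41, adjusted p = 0.0225, edgeR). In organoids it had 1081, 488 and 236 CPM in RNF138 fl/fl and 1204, 1112 and 1121 in those labelled RNF138-/-. All 3 of the latter were higher, while the RNF138 fl/fl organoids spread widely, and the difference did not pass (log2 fold change 0.90, SE 0.45, adjusted p = 0.151, edgeR). Exact permutation tests on these levels gave 0.1 in CAC and 0.1 in organoids (two-sided), the smallest p that 3 libraries against 3 allow.

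Actg2 (ENSMUSG00000059430, chr6:83512905-83536265, minus strand), the gamma actin of visceral muscle, is the more gut-specific of the 2. It measured 1197, 919 and 1213 CPM in RNF138 fl/fl colitis and 1768, 1285 and 562 in colitis labelled RNF138-/-, on both sides of the controls. In CAC the RNF138 fl/fl libraries held 363, 747 and 1468 CPM and those labelled RNF138-/- 11.5, 18.5 and 39.4. The 2 groups did not overlap, with means of 859 ± 561 and 23.1 ± 14.5 (38.8-fold lower, log2 fold change -5.28, SE 0.74, adjusted p = 0.0272, edgeR). RNF138 fl/fl organoids had 163, 85.9 and 17.1 CPM and organoids labelled RNF138-/- 402, 338 and 321. Here the libraries labelled RNF138-/- were the higher ones, each above every RNF138 fl/fl organoid (3.88-fold, log2 fold change 1.96, SE 0.62, adjusted p = 0.0403, edgeR).

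Myh11 (ENSMUSG00000018830, chr16:14194535-14291372, minus strand) encodes the heavy chain of smooth muscle myosin, the motor itself and a marker with little expression outside smooth muscle. Colitis libraries had 2049, 1662 and 1928 CPM (RNF138 fl/fl) and 3841, 2779 and 1912 (labelled RNF138-/-). In CAC they had 833, 822 and 2299 and 35.4, 38.7 and 51.97. The last 3 values were tightly grouped and far under every other tissue library, a 32.8-fold difference from RNF138 fl/fl CAC (log2 fold change -5.03, SE 0.54, adjusted p = 0.0193, edgeR). Organoids of both genotypes were also low, at 26.4, 9.66 and 2.50 CPM in RNF138 fl/fl and 58.1, 41.3 and 46.8 in those labelled RNF138-/-. Within that low range the organoids labelled RNF138-/- were higher, without overlap (3.66-fold, log2 fold change 1.87, SE 0.62, adjusted p = 0.0470, edgeR).

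Mylk (ENSMUSG00000022836, chr16:34745210-35002420, plus strand) encodes myosin light chain kinase, and the gene also gives a long form that nonmuscle cells use. It had 659, 652 and 701 CPM in RNF138 fl/fl colitis and 1317, 1013 and 855 in colitis labelled RNF138-/-. This was the 1 gene of the 9 whose colitis groups did not overlap, an order that 8.87% of all genes tested in colitis showed in this direction, with means of 671 ± 26.1 and 1062 ± 235 CPM, but it did not pass (log2 fold change 0.66, SE 0.21, adjusted p = 0.335, edgeR; exact permutation p = 0.1, two-sided, n = 3). The CAC libraries had 245, 281 and 807 CPM in RNF138 fl/fl and 36.6, 59.8 and 61.6 in those labelled RNF138-/-. It had the smallest fall of the 9, within 1 SE of Tagln and Acta2 (8.82-fold, log2 fold change -3.14, SE 0.54, adjusted p = 0.0343, edgeR), again without overlap. Organoids held 230.0, 131 and 80.4 CPM in RNF138 fl/fl and 429.7, 417 and 403 in those labelled RNF138-/-, a 2.76-fold rise (log2 fold change 1.47, SE 0.32, adjusted p = 0.0111, edgeR). Of its exon bases, 6.85% are overlapped by exons of opposite-strand genes.

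Cnn1 (ENSMUSG00000001349, chr9:22099216-22109630, plus strand), calponin, binds actin and slows the myosin motor. It had 1329, 994 and 1012 CPM in RNF138 fl/fl colitis and 2329, 1354 and 529 in colitis labelled RNF138-/-, from replicate 1 far above the controls to replicate 3 under them. In CAC the levels were 289, 483 and 1167 CPM in RNF138 fl/fl and 5.69, 4.70 and 19.5 in tissue labelled RNF138-/-. The highest library labelled RNF138-/- was far under the lowest RNF138 fl/fl one, a 67.8-fold difference (log2 fold change -6.08, SE 0.87, adjusted p = 0.0272, edgeR). Organoids had 81.7, 32.8 and 7.02 CPM in RNF138 fl/fl and 105, 82.8 and 107 in those labelled RNF138-/-. The latter were all higher, though the difference did not pass (log2 fold change 1.24, SE 0.65, adjusted p = 0.164, edgeR).

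Tagln (ENSMUSG00000032085, chr9:45929619-45936058, minus strand), transgelin or SM22 alpha, is usually among the most abundant smooth muscle transcripts, but was read at few counts here. It had 4.52, 5.34 and 8.92 CPM in RNF138 fl/fl colitis and 8.08, 4.44 and 3.25 in colitis labelled RNF138-/-, with overlap. In CAC the values were 2.95, 6.21 and 13.8 CPM in RNF138 fl/fl and 0.585, 0.891 and 1.04 in tissue labelled RNF138-/- (9.37-fold lower, log2 fold change -3.23, SE 0.63, adjusted p = 0.0406, edgeR). The groups did not overlap, and the 3 libraries labelled RNF138-/- rested on 11, 22 and 23 reads. RNF138 fl/fl organoids had 2.54, 3.11 and 1.08 CPM and organoids labelled RNF138-/- 5.33, 3.81 and 2.69, with overlap (log2 fold change 0.78, SE 0.42, adjusted p = 0.180, edgeR). In GENCODE M21, 67.9% of the exon bases of Tagln lie under exons of the opposite-strand genes Pcsk7 and Gm48529, and whether the counting used strand is not given in the sources used here. Pcsk7, a proprotein convertase, had 138 to 176 CPM in RNF138 fl/fl colitis and 67.9 to 69.5 in CAC labelled RNF138-/-. The level of Tagln is uncertain for this reason, and the part of the overlap in its low counts was not tested. Pcsk7 was chosen for this overlap after its values were seen.

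Des (ENSMUSG00000026208, chr1:75360329-75368579, plus strand) encodes desmin, the intermediate filament of muscle cells. It measured 2012, 1651 and 1396 CPM in RNF138 fl/fl colitis and 4289, 2305 and 853 in colitis labelled RNF138-/-, the latter on both sides of the controls. CAC libraries had 410.2, 817 and 2159 CPM (RNF138 fl/fl) and 5.32, 5.10 and 27.6 (labelled RNF138-/-). With means of 1129 ± 915 and 12.7 ± 12.9 it had the most negative log2 fold change of the 9, within 1 SE of Cnn1 (93.3-fold, log2 fold change -6.54, SE 1.08, adjusted p = 0.0317, edgeR), and replicate 3 labelled RNF138-/- kept the most. In organoids it had 4.56, 1.76 and 1.42 CPM in RNF138 fl/fl and 5.19, 6.03 and 6.05 in those labelled RNF138-/-, none of them above the level of CAC replicate 3 labelled RNF138-/-. The difference between the organoids did not pass (log2 fold change 1.10, SE 0.41, adjusted p = 0.0684, edgeR), although each library labelled RNF138-/- was above each RNF138 fl/fl one, and DESeq2 did call it higher. Of its exon bases, 5.86% are overlapped by the opposite-strand gene Gm15179.

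Lmod1 (ENSMUSG00000048096, chr1:135324807-135368065, plus strand), leiomodin, nucleates actin filaments in smooth muscle. It had 115, 108 and 89.4 CPM in RNF138 fl/fl colitis and 212, 159.9 and 88.9 in colitis labelled RNF138-/-. In CAC it had 34.6, 46.8 and 96.01 CPM in RNF138 fl/fl and 2.50, 3.04 and 3.67 in tissue labelled RNF138-/-, a 20.03-fold difference without overlap (log2 fold change -4.32, SE 0.45, adjusted p = 0.0193, edgeR). Organoids had 6.23, 3.19 and 1.55 CPM in RNF138 fl/fl and 8.35, 5.66 and 9.03 in those labelled RNF138-/-. These overlapped and did not pass (log2 fold change 1.02, SE 0.44, adjusted p = 0.106, edgeR).

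Synpo2 (ENSMUSG00000050315, chr3:123076519-123236149, minus strand), synaptopodin 2 or myopodin, bundles actin at the anchoring structures of muscle cells. Its levels were 316, 191 and 300.1 CPM in RNF138 fl/fl colitis and 508, 290.3 and 198 in colitis labelled RNF138-/-, overlapping. In CAC they were 74.2, 181 and 339.7 CPM in RNF138 fl/fl and 6.86, 10.4 and 9.42 in tissue labelled RNF138-/-. The fall was 23.3-fold (log2 fold change -4.54, SE 0.59, adjusted p = 0.0246, edgeR), with no overlap. Organoids held 13.6, 8.70 and 4.12 CPM in RNF138 fl/fl and 27.7, 26.7 and 23.1 in those labelled RNF138-/-, where the libraries labelled RNF138-/- were 2.85-fold higher (log2 fold change 1.51, SE 0.35, adjusted p = 0.0136, edgeR).

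Over the set, every CAC library labelled RNF138-/- was below every RNF138 fl/fl CAC library for 9 of 9 genes, where 20.7% of all genes tested in CAC showed that order. Every organoid library labelled RNF138-/- was above every RNF138 fl/fl organoid for 7 of 9, against 27.6% of genes in that direction. Summed over the 9, the level was 7465 to 8868 CPM in RNF138 fl/fl colitis, 6140.0 to 16577 in colitis labelled RNF138-/-, 2862 to 9631 in RNF138 fl/fl CAC and 159 to 317 in CAC labelled RNF138-/-. In the organoids the sum was 351 to 1609 CPM in RNF138 fl/fl and 2033 to 2245 in those labelled RNF138-/-. The median log2 fold change of the 9 was 0.51 in colitis tissue, -4.54 in CAC tissue and 1.24 in organoids, beside 0.02, 0.01 and -0.04 over all genes tested.

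**Figure D3:**
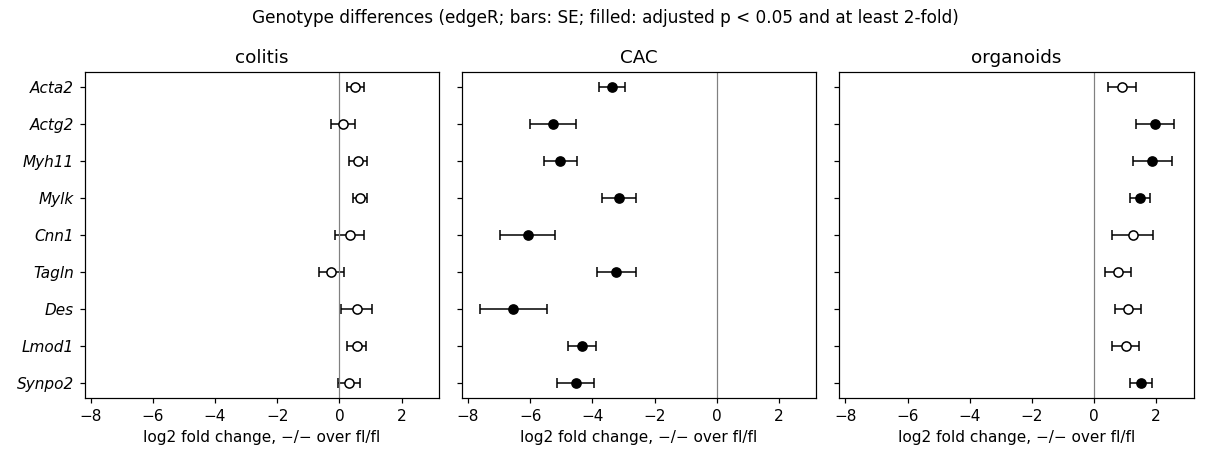
Log2 fold change of each of the 9 genes, libraries labelled RNF138-/- over RNF138 fl/fl, in colitis, CAC and organoids, with bars for the SE and filled points for genes past both thresholds. The 9 points lie left of 0 in CAC, from -3.14 for Mylk to -6.54 for Des, and right of 0 in the organoids, with 4 filled.

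The difference between the models was tested directly, as an interaction in 1 edgeR fit of the 18 libraries. Between CAC and colitis, the genotype difference was more negative in CAC for 9 of 9 genes, where 9.37% of 19390 genes were called in that direction. It ranged from -2.91 for Tagln (SE 0.75, adjusted p = 0.0194) to -7.03 for Des (SE 1.05, adjusted p = 0.00108) on the log2 scale. Leaving out RNF138 fl/fl CAC replicate 3 or replicate 1 of colitis labelled RNF138-/- left 8, without Tagln, and the former moved 7 of the 9 by over 1.5-fold, Des to -6.16. Without replicate 3 of CAC labelled RNF138-/- Des was -8.31, and without replicate 1 of colitis labelled RNF138-/- it was -6.38. Between organoids and CAC, a comparison added after the values had been seen, the genotype difference was more positive in organoids for 9 of 9, against 11.4% of genes. Its values lay between 3.98 (Tagln, adjusted p = 0.00229) and 7.61 (Des, adjusted p = 0.000328), and without RNF138 fl/fl CAC replicate 3, CAC labelled RNF138-/- replicate 3 or RNF138 fl/fl organoid replicate 1 Des was 6.73, 8.90 and 8.34, with 9 of 9 called each time. Both differences use the same 6 CAC libraries. In the one with organoids sex cannot be told apart from the rest, since only the RNF138 fl/fl organoids had 0 Y-linked counts.

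The proportions of the 9 genes to each other were compared in CAC. Ratios of counts within 1 library, which no scaling between libraries can move, were taken to Actg2 on the log2 scale. The ratio of Mylk to Actg2 was -0.95 ± 0.43 in RNF138 fl/fl and 1.34 ± 0.60 in those labelled RNF138-/-, and that of Acta2 to Actg2 was 0.16 ± 0.51 in RNF138 fl/fl and 2.05 ± 0.59 in those labelled RNF138-/-. Both ratios were higher in each of the 3 libraries labelled RNF138-/- than in any RNF138 fl/fl one, in that less of the kinase and the alpha actin was missing than of the gamma actin. Des to Actg2 went the other way, at 0.29 ± 0.23 in RNF138 fl/fl and -1.16 ± 0.67 in those labelled RNF138-/-, as did Cnn1 to Actg2, at -0.43 ± 0.17 in RNF138 fl/fl and -1.33 ± 0.56 in those labelled RNF138-/-. Tagln to Actg2 was -6.85 ± 0.11 in RNF138 fl/fl and -4.60 ± 0.54 in those labelled RNF138-/-. For these 5 ratios the genotypes did not overlap, and the exact permutation p was 0.1 each (two-sided, n = 3, 0.2 adjusted over 16 ratios), which is the smallest p the design allows, so none could pass. The ratios of Myh11, Lmod1 and Synpo2 gave exact permutation p = 0.5, 0.2 and 0.2. In colitis the ratios differed by -0.27 (Tagln) to 0.66 (Mylk), with exact permutation p between 0.1 and 0.6. For Mylk, Myh11 (0.57, against 0.37 in CAC) and Lmod1 (0.50) the colitis genotypes did not overlap either, at the same smallest p of 0.1.

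Ratios in the organoids were taken in the same way. Relative to Actg2, Acta2 was 3.005 ± 0.68 in RNF138 fl/fl and 1.70 ± 0.11 in those labelled RNF138-/-, whereas Des was -4.77 ± 1.06 in RNF138 fl/fl and -5.93 ± 0.29 in those labelled RNF138-/- and Myh11 was -2.85 ± 0.27 in RNF138 fl/fl and -2.87 ± 0.14 in those labelled RNF138-/-. In colitis tissue the same Des ratio was 0.60 ± 0.35 in RNF138 fl/fl and 0.91 ± 0.34 in those labelled RNF138-/-. Acta2 had more counts than Actg2 in all 6 organoid libraries, as in all 3 libraries labelled RNF138-/- of CAC and of colitis.

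**Figure D4:**
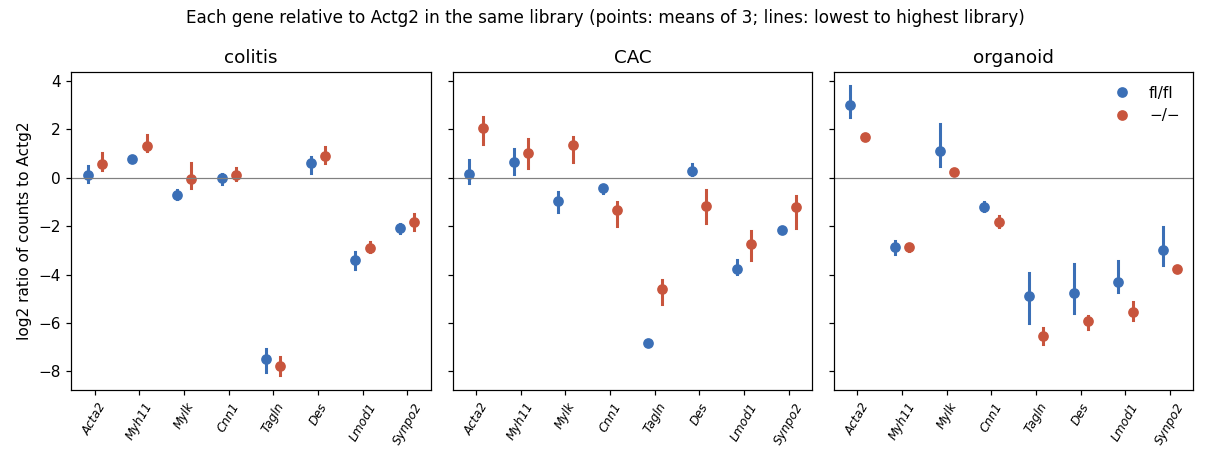
Log2 ratio of the counts of 8 genes to those of Actg2 in the same library, in colitis, CAC and organoids, with points for the means of 3 libraries and lines from the lowest to the highest. In CAC the lines of Acta2, Mylk and Tagln lie higher in the libraries labelled RNF138-/- and those of Cnn1 and Des lower, without overlap.

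Levels can be compared between genes only per length, and were divided by the kilobases of each gene's exon union. In RNF138 fl/fl colitis the order was Actg2 (713 ± 106 CPM per kilobase, SD, n = 3), Acta2 (537 ± 47.6), Des (449 ± 82.5), Cnn1 (406 ± 68.9), Myh11 (247 ± 26.1), Mylk (59.6 ± 2.32), Lmod1 (26.4 ± 3.32), Synpo2 (20.6 ± 5.22) and Tagln (3.15 ± 1.18). The ranges of mean ± SD overlapped between the neighbours Acta2 and Des, Des and Cnn1, and Lmod1 and Synpo2. In CAC labelled RNF138-/-, Acta2 led with 39.9 ± 12.9 and Actg2 followed with 14.9 ± 9.34. The means of Myh11, Mylk, Cnn1 and Des lay between 3.38 and 5.53 there, and each neighbour from Actg2 down to Synpo2 overlapped the next in mean ± SD. Organoids labelled RNF138-/- had 522 ± 23.2 for Acta2 and 227 ± 27.5 for Actg2, and Des was last with 1.53 ± 0.130. With the longest transcript in place of the exon union the first 2 places and the place of Tagln in tissue stayed the same, and Lmod1 and Synpo2 traded places in RNF138 fl/fl colitis and in CAC labelled RNF138-/-, where Myh11 and Mylk, and Cnn1 and Des, did so too.

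Set against colitis of the same genotype, the 9 genes were lower in CAC tissue labelled RNF138-/-. Among RNF138 fl/fl libraries 0 of 9 passed (edgeR, 13.6% of 19390 genes called in either direction), with 0 at an unadjusted p under 0.05, 0 by DESeq2, and log2 fold changes from -0.82 (Lmod1, adjusted p = 0.167) to 0.28 (Tagln, adjusted p = 0.731). Without RNF138 fl/fl CAC replicate 3, Lmod1 and Mylk passed as lower, both with a log2 fold change of -1.35. Among libraries labelled RNF138-/-, 9 of 9 were lower in CAC, against 19.6% of genes. Des fell 196-fold (log2 fold change -7.61, SE 0.90, adjusted p = 1.01e-05), Cnn1 141-fold (log2 fold change -7.14, SE 0.93, adjusted p = 2.18e-05) and Myh11 67.7-fold (log2 fold change -6.08, SE 0.68, adjusted p = 6.57e-06, edgeR). Tagln had the smallest fall (6.18-fold, adjusted p = 0.00106). Without replicate 3 of CAC labelled RNF138-/- the log2 fold change of Des was -8.895, that of Cnn1 -8.08 and that of Actg2 -6.33, and without replicate 1 of colitis labelled RNF138-/- that of Des was -6.96. Markers of other cells moved in the same comparison, with 10 of 12 enteric neuron genes, 5 of 6 glial, 6 of 6 adipocyte, 5 of 7 pericyte and 8 of 14 epithelial genes called lower. Of the glial and the epithelial genes, 1 each was called higher. Immune genes were called lower in 3 and higher in 3 of 10, squamous genes in 4 and 4 of 8, and skeletal muscle genes in 5 and 2 of 10. The part of these markers in the result was not tested. The test of the difference between the genotypes is the interaction of CAC and colitis given above, made of the same 12 libraries.

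Organoids differed from CAC tissue in opposite directions in the 2 genotypes. Against RNF138 fl/fl CAC, RNF138 fl/fl organoids were lower in 8 of 9 genes, where 26.8% of genes were called lower, with Des 429.9-fold lower (log2 fold change -8.75, SE 0.96, adjusted p = 2.03e-06) and Myh11 102-fold lower (log2 fold change -6.67, SE 0.70, adjusted p = 1.40e-06, edgeR). Acta2 did not pass (log2 fold change -0.53, SE 0.43, adjusted p = 0.298). Mylk was 3.02-fold and Tagln 3.39-fold lower, and without RNF138 fl/fl CAC replicate 3 neither passed (log2 fold change -0.84 and -1.04), which left 6, with Des at -7.87, Myh11 at -6.002 and Cnn1 at -3.25. Without RNF138 fl/fl organoid replicate 1 all 9 passed, with Des at -9.47, Myh11 at -7.77, Cnn1 at -5.02 and Acta2 at -1.26. Against CAC labelled RNF138-/-, organoids labelled RNF138-/- were higher in 7 of 9, where 17.9% of genes were called higher. Actg2 rose 15.3-fold (log2 fold change 3.93, SE 0.71, adjusted p = 0.000210), Acta2 13.1-fold (log2 fold change 3.71, SE 0.48, adjusted p = 7.72e-06), Cnn1 9.86-fold and Mylk 7.91-fold (edgeR, adjusted p = 0.00189 and 2.58e-05). Myh11 (log2 fold change 0.21, SE 0.55, adjusted p = 0.753) and Des (log2 fold change -1.14, SE 0.72, adjusted p = 0.179) did not pass. Without replicate 3 of CAC labelled RNF138-/- Actg2 was 4.54 and Cnn1 4.23 on the log2 scale, and 6 of 9 passed, without Lmod1, when CAC labelled RNF138-/- replicate 1 or organoid labelled RNF138-/- replicate 3 was left out. Of 12 fibroblast genes, 9 were called higher and 1 lower in RNF138 fl/fl organoids, and 10 and 0 in those labelled RNF138-/-. In both genotypes 10 of 10 immune and 6 of 7 endothelial genes were called lower. The part of these markers in the result was not tested. Culture, the cells it selects and the change from tissue cannot be told apart in this comparison. Among RNF138 fl/fl libraries sex cannot be told apart from them either. The Y-linked genes summed to 0 CPM in those organoids and to 188 to 229 in that CAC tissue.

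The scaling between libraries moved the values of all genes. With library size in place of TMM, the median log2 fold change of all genes shifted by 0.26 in CAC, -0.20 in organoids, 0.31 in CAC against colitis labelled RNF138-/- and -0.62 in organoids against CAC labelled RNF138-/-. The calls over all genes in organoids went from 1215 higher and 1077 lower to 936 and 1654, and those in organoids against CAC labelled RNF138-/- from 3466 and 5138 to 2177 and 8153. In CAC against colitis labelled RNF138-/- they went from 3392 and 3804 to 4789 and 2932. The interaction of CAC and colitis went from 498 and 1817 to 844 and 1453, and that of organoids and CAC from 2211 and 1462 to 1520 and 3434. The 9 genes stayed lower in CAC labelled RNF138-/- and the same 4 of 9 were called higher in organoids labelled RNF138-/-. In organoids against CAC labelled RNF138-/-, 5 of 9 then passed as higher (without Lmod1 and Synpo2), Des passed as lower at -1.77 and Myh11 turned to -0.41.

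Other genes of the smooth muscle cytoskeleton were lower in CAC labelled RNF138-/- too. Of 25 such genes tested, 14 were called lower and 0 higher (median log2 fold change -2.10), while the 9 contractile genes had a median of -4.54. Largest were Synm (synemin, an intermediate filament protein, log2 fold change -5.12, SE 0.66, adjusted p = 0.0246), Pgm5 (an adhesion plaque protein, -5.001), Tpm2 (a tropomyosin, -4.65), Myl9 (the regulatory light chain that Mylk phosphorylates, -4.06) and Pdlim3 (-3.97). In colitis 0 of 25 passed (edgeR, median 0.44). In the organoids labelled RNF138-/- 9 of 23 tested rose and 0 fell (median 0.88), led by the integrin Itga8 (log2 fold change 1.87, SE 0.19, adjusted p = 0.00112), Fhl1 (1.53), the filamin Flna (1.44), Itga5 (1.44) and Flnc (1.41).

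Of the genes that pass the signal to contract, 8 of 20 tested were lower in CAC labelled RNF138-/- and 0 higher (median -1.55), where 0 of 21 passed in colitis (edgeR, median 0.43). Among them were the receptors for the neurotransmitters of the gut, Tacr2 for neurokinin A and the muscarinic receptor Chrm2. Chrm2 had 16.6, 19.6 and 15.1 CPM in RNF138 fl/fl CAC and 0.957, 1.58 and 1.22 in CAC labelled RNF138-/- (log2 fold change -3.81, SE 0.26, adjusted p = 0.0168, edgeR). Tacr2 had 4.25, 3.90 and 10.1 CPM in RNF138 fl/fl CAC and 0.0532, 0.0405 and 0.181 in CAC labelled RNF138-/-, the latter at the level of 1 to 4 reads. Ryr2, a calcium release channel, also fell, from 4.62, 5.17 and 8.99 CPM in RNF138 fl/fl CAC to 0, 0.0405 and 0.362, or 0, 1 and 8 reads, in CAC labelled RNF138-/- (edgeR adjusted p = 0.0316), as did Ppp1r12b, the targeting subunit of the phosphatase that undoes the work of Mylk (-2.75), and Mrvi1 (-2.62). In the organoids labelled RNF138-/- 7 of 16 rose and 1 fell (median 0.53), with Prkg1, the cGMP-dependent kinase that relaxes smooth muscle (log2 fold change 2.08, SE 0.49, adjusted p = 0.0140), its substrate Mrvi1 (2.08) and the potassium channel subunits Kcnmb1 (1.90) and Kcnma1 (1.66) up, and Chrm3 (-1.87) down.

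The transcription regulators of smooth muscle were described in the same way. In CAC labelled RNF138-/- 3 of 12 tested were lower, Klf4 (log2 fold change -2.64, SE 0.52, adjusted p = 0.0409), Foxf1 (log2 fold change -1.13, SE 0.21, adjusted p = 0.0372) and Nkx2-3 (log2 fold change -1.11, SE 0.18, adjusted p = 0.0310, edgeR), and 0 higher (median -1.04). Klf4 is also an epithelial factor, and Foxf1 and Nkx2-3 are factors of the gut mesenchyme. SRF and its partners are given although they did not pass, a choice made after their values were seen. Srf had 44.7, 55.9 and 65.6 CPM in RNF138 fl/fl CAC and 40.04, 36.8 and 38.3 in CAC labelled RNF138-/- (log2 fold change -0.58, SE 0.17, adjusted p = 0.0787, edgeR). Myocd, which encodes myocardin, had 1.60, 3.90 and 5.49 and 0.851, 1.38 and 0.589 CPM, without overlap, and did not pass (edgeR adjusted p = 0.0696). Mkl1, a partner of SRF that responds to actin, had a log2 fold change of -0.08 (adjusted p = 0.800). Mkl2, the other such partner, had 55.4, 77.5 and 52.7 CPM in RNF138 fl/fl CAC and 82.6, 105 and 87.6 in CAC labelled RNF138-/-, higher without overlap (log2 fold change 0.52, SE 0.19, adjusted p = 0.115, edgeR). In the organoids Myocd was at most 0.224 CPM, near the level of 3 counts, while Mkl1 rose in those labelled RNF138-/- (log2 fold change 1.40, SE 0.22, adjusted p = 0.00373, edgeR) together with Nkx2-3 (2.42), Foxf1 (2.10), Meis1 (1.28) and Tead1 (1.05). Barx1 fell there (-3.26), and 5 of 12 tested rose and 1 fell in all (edgeR, median 0.44). In colitis 0 of 12 passed.

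The nonmuscle counterparts of the 9 genes, the actins, myosins, calponins, transgelin and filament protein that most cells use, were tested as well. Of Actb, Actg1, Myh9, Myh10, Cnn2, Cnn3, Tagln2 and Vim, 0 of 8 passed in CAC (edgeR, median -0.10, 2 at an unadjusted p under 0.05, where 33.8% of all genes were) and 0 in colitis (median 0.08). In CAC labelled RNF138-/- Myh10 was at 13.6, 24.8 and 24.1 CPM against 23.7, 22.5 and 16.3 in RNF138 fl/fl tissue (log2 fold change -0.05, SE 0.27, adjusted p = 0.910, edgeR), and Vim at 279.8, 433 and 483 against 323, 361 and 186 (log2 fold change 0.41, SE 0.31, adjusted p = 0.374, edgeR). Actb (log2 fold change -0.63, SE 0.25, adjusted p = 0.132) and Cnn2 (log2 fold change -0.53, SE 0.21, adjusted p = 0.130) had the 2 lowest log2 fold changes of the 8. In the organoids 1 of 8 was called higher in those labelled RNF138-/-, Myh10 (log2 fold change 1.81, SE 0.33, adjusted p = 0.00616, edgeR), with 151, 80.3 and 52.1 CPM in RNF138 fl/fl and 317, 372 and 327 in those labelled RNF138-/-. Reads of Actg1 are uncertain, since 37.4% of its 50-base windows match a transcript of some other gene.

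Markers of other cells of the gut wall moved with the 9 genes in CAC. Of 11 enteric neuron genes tested, 7 were lower in CAC labelled RNF138-/-, and the summed level of the list of 12 was 32.1 to 55.3 CPM against 91.1 to 152 in RNF138 fl/fl CAC and 162 to 185 in RNF138 fl/fl colitis. Ret, a large part of that sum, was not lower. It had 28.8, 25.5 and 10.1 CPM in RNF138 fl/fl CAC and 47.3, 22.8 and 14.0 in CAC labelled RNF138-/-. The neuropeptide Vip had 24.2, 22.3 and 17.99 CPM in RNF138 fl/fl CAC against 0, 0.202 and 0.362 in the libraries labelled RNF138-/-. The glial factor Sox10 was lower as well, with 1.35, 1.41 and 1.99 CPM in RNF138 fl/fl CAC and 3, 2 and 1 reads in CAC labelled RNF138-/- (edgeR adjusted p = 0.0212), 1 of 5 glial genes tested, as were 2 of 3 genes of the interstitial cells of Cajal, Etv1 (-2.42) and Kit (-1.67). The other gene of that list, Ano1, was not lower, with 171, 177 and 64.4 CPM in RNF138 fl/fl CAC and 125, 142 and 173 in CAC labelled RNF138-/-. Of 4 adipocyte genes tested 4 were lower, with Adipoq at 10.8, 5.88 and 1.70 CPM in RNF138 fl/fl CAC and 0 in all 3 libraries labelled RNF138-/-. In colitis labelled RNF138-/- the adipocyte sum was highest in replicate 3 (185 CPM against 32.6 and 42.1), the library lowest for the 9 contractile genes. The part of how much of the wall each sample held in the results on the 9 genes was not tested.

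Fibroblast, vessel, epithelial and immune genes were counted in CAC as well. Of 12 fibroblast genes 1 was lower in CAC labelled RNF138-/-, Dpt (log2 fold change -2.04, SE 0.31, adjusted p = 0.0286), and the summed level of the list was 1096 to 2042 CPM there and 1524 to 2212 in RNF138 fl/fl CAC. Of 7 pericyte genes 1 was lower (Abcc9, -1.20), with summed levels of 158 to 228 and 258 to 1083 CPM, and of 7 endothelial genes 0 passed (edgeR, 114 to 187 and 122 to 184 CPM). Epithelial genes were lower in 3 of 14, Aqp8 (-7.87), Cdx2 (-3.95) and Muc2 (-2.90), at summed levels of 8806 to 10669 against 17307 to 43153 CPM. The highest of these was RNF138 fl/fl CAC replicate 3, also the highest for the 9 contractile genes. Of 10 immune genes 3 were lower, among them Cd79a of B cells (-3.60) and Jchain of plasma cells (-3.51). Skeletal muscle genes, which would mark tissue from the anal sphincter or pelvic floor, had 1 of 8 tested lower (Ckm) and summed to at most 71.8 CPM over 14 genes in any tissue library. Of 6 squamous epithelial genes and 1 cardiac isoform tested, 0 passed. The part of these shifts in the results on the 9 genes was not tested.

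The organoid libraries held a strong fibroblast signal. The summed level of the 12 fibroblast genes was 9872 to 25124 CPM in RNF138 fl/fl organoids and 43847 to 53966 in those labelled RNF138-/-, against at most 2212 in any tissue library. Of the 12, 8 were higher in organoids labelled RNF138-/-, among them Col3a1 (log2 fold change 2.12, SE 0.38, adjusted p = 0.00542), Dcn (2.03) and the receptor Pdgfra (1.88), and 4 of 7 pericyte genes were higher, led by Abcc9 (2.78) and Kcnj8 (2.11). Col3a1, a fibrillar collagen, had 5167, 2128 and 2008 CPM in RNF138 fl/fl and 11796, 15263 and 14390.2 in those labelled RNF138-/-. In both lists the order of the 3 RNF138 fl/fl libraries put replicate 1 first, the library that was also highest for 8 of the 9 contractile genes. Rgs5, a defining pericyte gene named after its values were seen, was at most 2.87 CPM in organoids, endothelial genes summed to at most 19.2 CPM, and epithelial genes to 10102 to 11379.9 CPM in RNF138 fl/fl and 6097 to 8955 in those labelled RNF138-/-. The part of the fibroblast signal in the organoid results on the 9 genes was not tested.

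**Figure D5:**
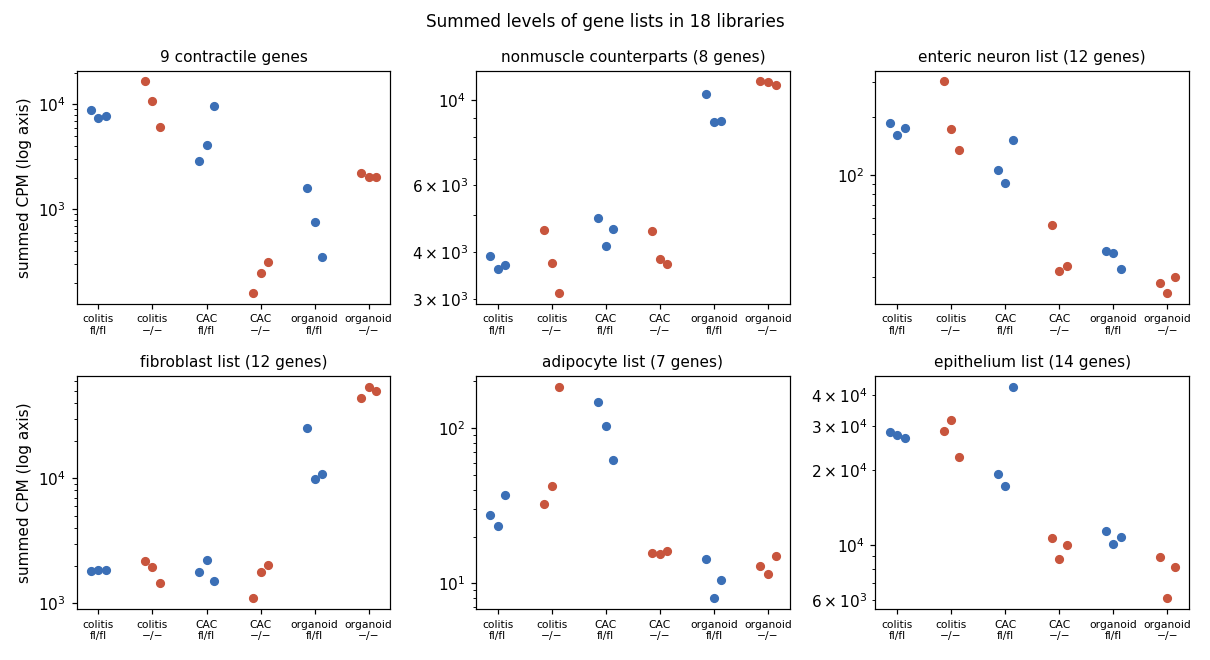
Summed CPM of the 9 contractile genes and of 5 other gene lists (log axes), with 1 point per library in the 6 groups, blue for RNF138 fl/fl and red for libraries labelled RNF138-/-. In CAC labelled RNF138-/- the contractile, neuron, adipocyte and epithelium sums lie under every RNF138 fl/fl CAC library while the nonmuscle counterparts overlap, and the fibroblast sums of the organoids exceed every tissue library.

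Across the 12 tissue libraries the 9 genes varied together. Pearson's r of log2(CPM + 1) between pairs was 0.857 to 0.999 over 36 pairs (median 0.984), over values that include the low CAC libraries labelled RNF138-/-. With each group's mean subtracted, r was still 0.714 to 0.994 (median 0.854). The points share libraries, and any difference between libraries in how much muscle they hold enters every pair, so these values are a description. Among 12354 other genes of at least 5 CPM, the 10 most like the mean of the 9 over the 12 libraries included Synm (r = 0.998), Pdlim3 (0.996), Myl9 (0.992), Stum (0.992), Pgm5 (0.991), Tpm2 (0.991), Ppp1r12b (0.990), Cyp4f14 (0.990) and Optc (0.988). Synm, Pdlim3, Myl9, Pgm5, Tpm2 and Ppp1r12b belong to the cytoskeleton or the contractile machinery, whereas Cyp4f14 encodes a cytochrome P450 and Optc a proteoglycan. With group means subtracted, the 10 were Pdlim3 (0.986), Synm, Tpm2, Popdc2, Cryab, Gpx8, Pgm5, Stum, Pdzd2 and Mcam (0.952), of which 5 were shared with the first list.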

How the data were processed

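Total RNA of colorectal tissue and organoids was made into TruSeq libraries. The deposited table holds whole-number counts per gene for all 18 libraries, and per the labels' processing notes the authors used STAR 2.6.1d, HTSeq 0.11.2 and the mm10 build, whereas the methods of the study name Cufflinks, and whether strand was used in counting is not given in the sources used here. A second deposited file holds the authors' own fold changes and p-values and was not used. The 9 genes, the gene lists and the tests were chosen with earlier results of these data known.

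Libraries were grouped by the genotype and model in their labels, with 3 per group, and 0 columns were left out. Counts were fitted with edgeR 4.0.16 (R 4.3.3), by the quasi-likelihood test after TMM scaling and edgeR's filter on low counts, with the 6 libraries of a model for the genotype difference and all 18 libraries for differences between models and interactions. A call needed a Benjamini-Hochberg adjusted p under 0.05 over all genes tested and at least a 2-fold change. The fits were tested on simulated data. Of the gene IDs, 99.8% (36700 of 36757) matched GENCODE M21, which gave coordinates and exon lengths. Ratios between genes used counts plus 0.5 and exact permutation tests, and correlations used log2(CPM + 1). Promoter sequence came from RefSeq (GRCm38.p6). Depth was 11514716 to 24390082 counts per library, and the value of 3 counts in CPM covers counting error only.

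Named were the 9 genes in every comparison, their 8 nonmuscle counterparts, from each other list up to 5 called genes by the size of the log2 fold change, the 10 genes most like the 9, and Rnf138. Some genes that this rule names are not reported here. Of 189 list genes 185 were found by symbol. Alternatives were DESeq2 1.42.0, RLE scaling, library size alone, no filter, the replicate number as a block, a covariate from 4 Y-linked genes, another set of libraries in the fit, and leaving out each library. Replicate numbers were checked for pairing by the correlation of same-numbered libraries' deviations from their group means over genes. In colitis these were 0.261, 0.114 and 0.531. Yet RNF138 fl/fl replicate 1 reached 0.279 with replicate 2 labelled RNF138-/-, and RNF138 fl/fl replicate 2 reached 0.244 with replicate 1 labelled RNF138-/-. Whether the numbers pair the libraries is therefore not known. The colitis fit with the block gave 0 of 9, as did the fit without it. No pair of replicates agreed within sampling noise.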

Additional observations from a re-analysis of the deposited data

Results flagged for a closer look

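The genotype difference of each of the 9 contractile genes was not the same in the 3 models, by the edgeR interaction test. The log2 fold change of RNF138-/- over RNF138 fl/fl by label in CAC minus that in colitis was -3.82 (Acta2), -2.91 (Tagln), -5.57 (Myh11), -6.35 (Cnn1), -7.03 (Des), -5.33 (Actg2), -4.82 (Lmod1), -4.78 (Synpo2) and -3.74 (Mylk), with adjusted p between 0.000426 and 0.0194. The same difference in organoids minus that in CAC, a comparison added after the data had been seen, was 4.23 (Acta2), 3.98 (Tagln), 6.89 (Myh11), 7.29 (Cnn1), 7.61 (Des), 7.21 (Actg2), 5.31 (Lmod1), 6.03 (Synpo2) and 4.58 (Mylk), with adjusted p between 9.13e-05 and 0.00229. Both sets of values contain the 6 CAC libraries, in which the neuron, adipocyte and epithelial sums were lower in the same 3 libraries. In the set with organoids, 8 of 12 fibroblast and 4 of 7 pericyte genes were called higher as well. The part of those cells in these values was not tested. Sex cannot be told apart from the rest in the set with organoids, since only the RNF138 fl/fl organoids had 0 Y-linked counts.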

How the results depend on the processing

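Directions of the 9 contractile genes held in CAC under all 13 alternatives and in organoids under all 12 run. The count of genes called in CAC was 0 with the covariate from Y-linked genes and 0 to 9 when single libraries were left out. In organoids it was 7 without a filter and 2 to 8 when single libraries were left out. In CAC against colitis, RNF138 fl/fl, it was 0 to 2 when single libraries were left out. The cause of these changes was not tested.

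Signs turned in comparisons or genes that had not passed. In colitis, Actg2 was -0.0103 on the log2 scale with the replicate block and -0.12 with the Y-linked covariate. Leaving out single colitis libraries gave -0.26 to 0.45 for Actg2, -0.24 to 0.72 for Cnn1, -0.0939 to 0.96 for Des, -0.14 to 0.56 for Synpo2 (each negative without replicate 1 labelled RNF138-/-, Actg2 also at -0.02 without RNF138 fl/fl replicate 2) and -0.70 to 0.0895 for Tagln (positive without RNF138 fl/fl replicate 3). In CAC against colitis, RNF138 fl/fl, Des was 0.26 and Actg2 0.0652 with the Y-linked covariate, and Tagln -0.44 to 0.64 when single libraries were left out (negative without CAC replicate 3). In organoids against CAC labelled RNF138-/-, Myh11 was -0.41 with library size alone, and Des -1.53 to 0.13 when single libraries were left out (positive without CAC replicate 3).

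With the replicate number as a block, 9 of 9 genes were called in CAC and 4 of 9 in organoids, as without it. Same-numbered deviations correlated at 0.03, 0.22 and 0.08 in CAC and at -0.21, -0.09 and 0.07 in organoids. Whether the numbers pair these libraries is not known. Not every library correlated best with its own number, and the block changed no other call. The covariate from Y-linked genes was not run for organoids, whose genotypes it divides. Depth limits Tagln, read at 11 to 23 counts in CAC labelled RNF138-/-. Over the alternatives, values of single genes kept their direction and side of the threshold in 1022 cases, lost the call in 51, gained it in 12 and turned in 13.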
